A study of Mus musculus with 18 samples.

Results

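The data describe the change from 1 to 3 h of lipopolysaccharide (LPS) in mouse bone marrow-derived macrophages, compared across all genes in wild-type and RelA-TA-KI cells. The comparison was defined by the sample labels alone: the 2 libraries at 3 h of LPS were set against the 2 libraries at 1 h of LPS, so 4 of the 18 libraries of the series belong to it. The study measured poly(A) RNA from both genotypes before stimulation and after 0.5, 1, 3 and 8 h of LPS (100 ng/ml) or of the cytokine TNF (10 ng/ml). All groups carried the C57BL/6 strain label and an age label of 12 days. The cells were grown from bone marrow in medium with 30% L929-cell conditioned medium, a source of the macrophage growth factor CSF-1, and were stimulated on day 7 of culture. RelA-TA-KI cells carry a knock-in at Rela, which encodes a DNA-binding subunit of NF-kB, and the labels give no more about the allele. Each genotype had 1 library per time, and the labels name no separate mice or cultures. A p-value here therefore rests on how the difference between the wild-type and knock-in libraries varied over the 9 conditions. That spread may be technical and also holds any real difference in response between the genotypes. Genotype and culture cannot be told apart. In each pair of values below the wild-type library comes first and the knock-in library second.

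The 4 libraries held between 4802301 and 5555720 counts, within the range of 4663650 to 6721917 over all 18, and had between 13968 and 14595 genes with at least 1 count. Macrophage markers (Csf1r, Adgre1, Cd68, Lyz2, Itgam) summed to 9200 to 9800 CPM (the counts-per-library-total scale, with totals adjusted by TMM factors) at 1 h and 9730 to 10200 CPM at 3 h, and none of the 5 passed the test (Adgre1 did without the knock-in 3 h library, adjusted p = 0.0224). Neutrophil markers summed to 164 to 352 CPM at 1 h and 244 to 339 CPM at 3 h, stromal markers to 43.4 to 135 and 72.1 to 144 CPM, and lymphocyte markers, nearly all of it Il7r, to 75.8 to 119 and 49.9 to 86.5 CPM. Dendritic cell, mast cell and erythroid markers summed to less than 10 CPM in each of the 4 libraries, and Cd3e, Cd3g, Clec9a, Mcpt4, Tpsb2, Fcer1a, Klf1 and Lum had no count in any of them. Il7r, the receptor chain for interleukin 7, fell by 0.53 ± 0.15 on the log2 scale. Of the other marker genes tested none passed the test. With library totals 4 of the 5 macrophage markers, 1 neutrophil marker and 1 dendritic cell marker were called lower. Rela itself stood at 128 and 105 CPM at 1 h and 283 and 181 CPM at 3 h. This does not test the label, since a knock-in allele can still be transcribed. The mitochondrial share of counts was 0.733 and 0.86% at 1 h and 0.575 and 0.482% at 3 h, and its part in the results was not tested. Among all 18 libraries, the RelA-TA-KI library at 3 h of TNF, used in a later comparison, had the smallest total (4663650), the lowest mitochondrial share (0.404%) and the highest share of the ribosomal RNA-like Gm42418 (3.36%).

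LPS is a component of the outer membrane of Gram-negative bacteria and is recognised by TLR4 with its partners MD-2 and CD14. Signalling through MyD88 activates NF-kB and MAP kinases within minutes and induces primary response genes, whose transcription needs no new protein synthesis. Signalling through TRIF activates the factor IRF3, which together with NF-kB induces Ifnb1, the gene of interferon beta. Secreted interferon beta then acts on its receptor and, through a transcription factor complex that contains IRF9, induces a large set of antiviral genes by way of the interferon-stimulated response element (ISRE). The interval from 1 to 3 h thus spans the textbook change from the primary to the secondary response.

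Promoters of 4 genes are shown: Ifit3 and Oasl1 from the list of interferon and IRF3 targets, Il6 from the secondary effectors, and Fosb from the early genes. They are part of a selection of the 2 largest changes per list, or group of early lists, among genes with 1 promoter entry. Not shown are Nr4a1, with 1 kappaB match, and Cmpk2, Ifi44 and Cxcl9, which held no match. The 4 shown are thus no sample of how often motifs occur. Each runs from 250 bases before to 50 bases after the start in the RefSeq table (build GRCm38.p6), 5′ to 3′ on the gene's strand. Capitals mark matches, on either strand, to the ISRE core (GAAA, any pair of bases, GAAA) or to the kappaB motif bound by NF-kB. Ifit3 held 2 ISRE cores (chr19:34583279-34583578, plus strand), and Oasl1 (chr5:114922990-114923289, plus strand), Il6 (chr5:30012864-30013163, plus strand) and Fosb (chr7:19309996-19310295, minus strand) each held 1 kappaB match.
Ifit3: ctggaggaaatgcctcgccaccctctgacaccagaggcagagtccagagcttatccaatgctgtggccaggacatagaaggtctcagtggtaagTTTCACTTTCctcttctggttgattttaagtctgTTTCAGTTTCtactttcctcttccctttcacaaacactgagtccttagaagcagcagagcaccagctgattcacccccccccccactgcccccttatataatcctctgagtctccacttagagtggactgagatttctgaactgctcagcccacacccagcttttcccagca
Oasl1: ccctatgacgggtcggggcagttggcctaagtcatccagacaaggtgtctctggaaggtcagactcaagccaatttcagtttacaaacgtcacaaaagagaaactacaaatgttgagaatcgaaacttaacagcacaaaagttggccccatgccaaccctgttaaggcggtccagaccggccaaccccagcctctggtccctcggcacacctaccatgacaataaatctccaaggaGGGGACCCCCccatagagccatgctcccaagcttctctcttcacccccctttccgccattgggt
Il6: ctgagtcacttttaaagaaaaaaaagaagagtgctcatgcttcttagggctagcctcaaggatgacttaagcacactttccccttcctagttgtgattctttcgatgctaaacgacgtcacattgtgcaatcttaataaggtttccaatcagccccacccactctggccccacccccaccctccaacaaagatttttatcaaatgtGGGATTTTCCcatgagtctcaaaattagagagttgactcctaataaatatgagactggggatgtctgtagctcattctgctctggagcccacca
Fosb: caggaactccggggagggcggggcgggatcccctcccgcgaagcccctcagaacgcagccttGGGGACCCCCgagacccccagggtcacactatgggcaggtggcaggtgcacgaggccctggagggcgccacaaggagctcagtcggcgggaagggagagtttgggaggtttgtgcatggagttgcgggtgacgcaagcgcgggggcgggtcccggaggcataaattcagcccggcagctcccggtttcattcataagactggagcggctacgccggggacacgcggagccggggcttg

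Of 11308 genes tested, 2252 were higher at 3 h than at 1 h (19.9%) and 2019 were lower (17.9%) by edgeR's quasi-likelihood test at an adjusted p under 0.05. At least 2-fold, 1074 were higher (9.5%) and 832 were lower (7.36%). The sign was the same in both genotypes for 4265 of the 4271 called genes. Among the 1074 genes, 787 stood at least 2-fold above the unstimulated level in both genotypes at 3 h (on CPM + 1), against 992 of all 11308, and 717 of these 787 were at 1 h neither above nor below it by that measure (823 of all 11308). Among the 832 genes, 55 had been at least 2-fold above the unstimulated level in both genotypes at 1 h (6.61%, against 2.16% of all tested), while 505 stood at least 2-fold below it at 3 h (60.7%, against 5.77%). Most of the falls thus ended below the starting level. At 8 h, 363 of the 1074 stood at least 2-fold above their 3 h level in both genotypes (33.8%, against 8.07% of all tested) and 42 at least 2-fold below it (3.91%, against 7.73%). Of the 832 lower genes, 61 stood above (7.33%) and 109 below (13.1%) their 3 h level by the same measure. These counts describe the courses and test nothing, since all of them share the libraries that chose the genes.

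Scaling by plain library totals in place of TMM factors lowered all changes by a median of 0.39 on the log2 scale and gave 1264 higher and 5295 lower genes. With it 19.3% of calls were higher, in place of 52.7%. The number of calls fell from 4271 to 2736 without both wild-type libraries and to 2563 without both knock-in libraries, where 1 library stands for each time and is assumed to vary like the other groups. With bulk RNA, fewer cells of a type and less RNA per cell cannot be told apart.

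**Figure D1:**
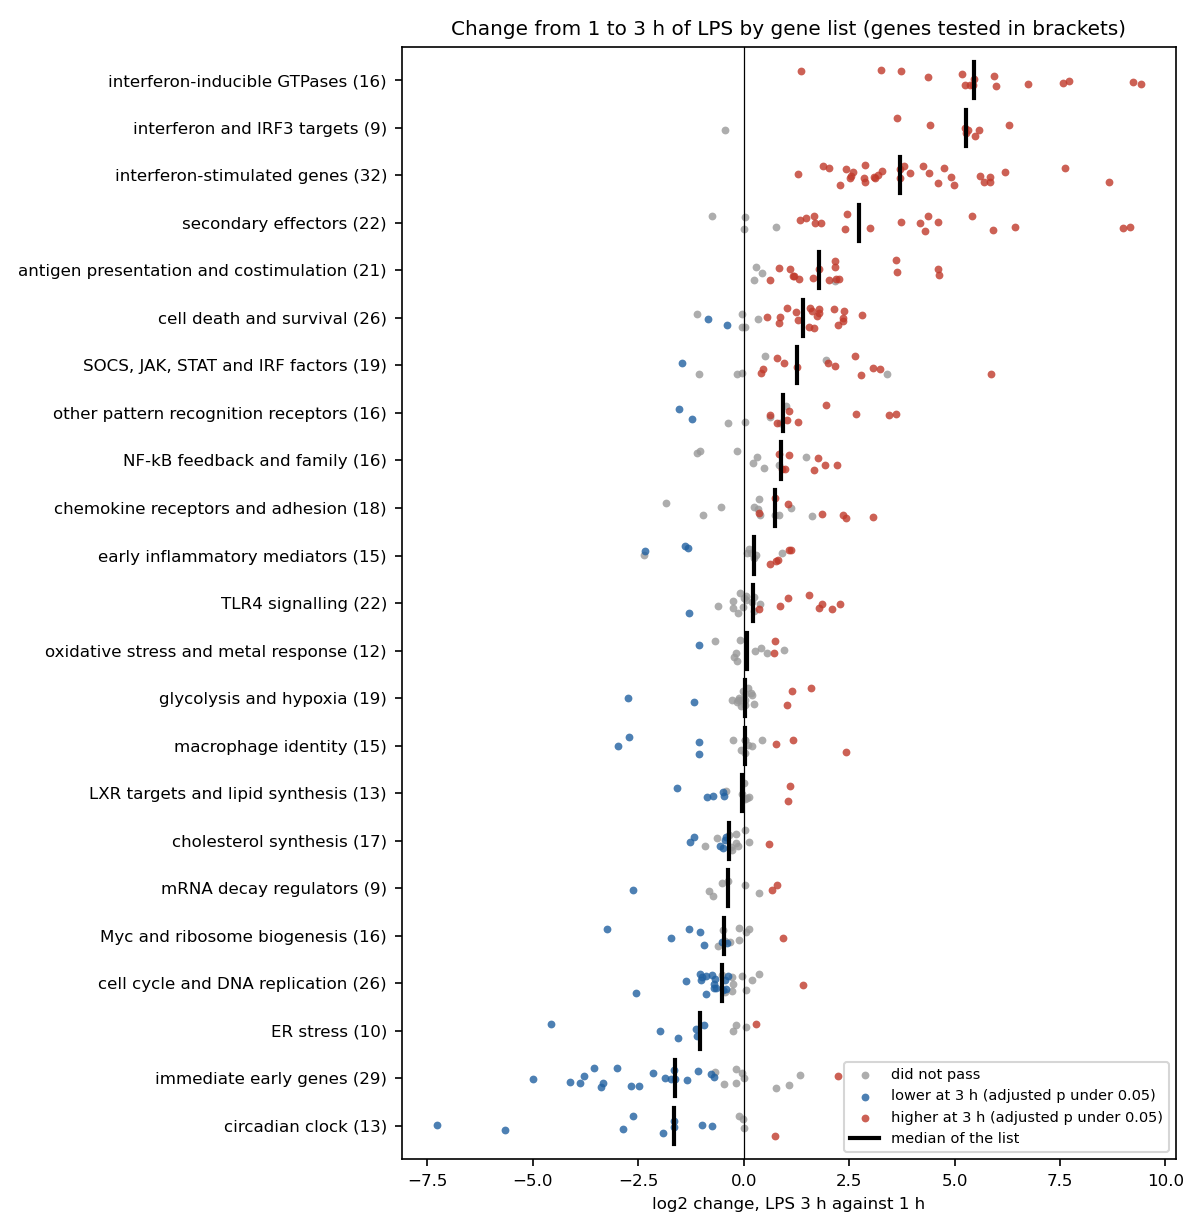
Each point is 1 tested gene of the 23 gene lists, placed by its log2 change from 1 to 3 h of LPS, red where higher and blue where lower at an adjusted p under 0.05, grey where the test was not passed; the black bar is the list's median. The 3 interferon lists lie at the top with medians of 5.449, 5.262 and 3.697, and the immediate early genes and the circadian clock at the bottom with medians of -1.635 and -1.645; Tgtp1, Nr1d1 and Per2 had no count at one of the times and their fitted values are no bounds.

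Immediate early genes, which encode transcription factors and signal terminators that are switched on without new protein synthesis, were lower at 3 h in 19 of 29 tested, higher in 1 and not called in 9. Their median log2 change was -1.635, against -0.0025 over all 11308 genes. For this and each list below, the shares over all tested genes were 19.9% higher and 17.9% lower. The lists were chosen with earlier results of these data known, so counts by list describe them and test nothing. Fosb, an AP-1 subunit, stood at 41.03 and 54.97 CPM at 1 h and 3.84 and 1.60 CPM at 3 h. Both 3 h libraries lay below both 1 h libraries, and Fosb fell by 4.11 ± 0.41 (SE) on the log2 scale (adjusted p = 7.02e-06). It had been at 1.11 and 0.717 CPM before stimulation and at 31.1 and 76.6 CPM at 0.5 h, and went on to 0.323 and 0.295 CPM at 8 h. Egr3, a zinc finger factor, had 82 counts over the pair of 1 h libraries and 2 over the pair at 3 h, a ratio of 35.2 (95% counting interval 9.45 to 296). Egr2, its relative, stood at 58.9 and 26.8 CPM at 1 h and 1.92 and 3.89 CPM at 3 h. It fell by 3.89 ± 0.91 (adjusted p = 0.00743), a call that was lost without the wild-type 3 h library (adjusted p = 0.0814). Nr4a1, an orphan nuclear receptor, stood at 31.8 and 36.2 CPM at 1 h and 3.20 and 1.60 CPM at 3 h. It fell by 3.79 ± 0.31 (adjusted p = 5.17e-07), and its 3 h values lay under its unstimulated 5.07 and 5.02 CPM.

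Other early genes fell from high levels. Dusp1, the phosphatase that switches off p38 and JNK, fell by 3.33 ± 0.50 from 368 and 1108 CPM to 22.8 and 140.5 CPM, with the higher value in the knock-in library at each time. Dusp4, a phosphatase of ERK, fell by 3.55 ± 0.20, and its 3 h values of 25.8 and 28.8 CPM were under its unstimulated values of 66.3 and 59.9 CPM. Jun fell by 1.35 ± 0.25, Egr1 by 2.15 ± 0.41 and Atf3, a repressor of inflammatory genes, by 0.71 ± 0.13. Atf3 went from 931 and 1619 CPM to 608 and 932 CPM, so that the wild-type 1 h value lay just under the knock-in 3 h value. The single member that rose was Nr4a3, the third NR4A receptor, from 9.38 and 3.72 CPM to 55.2 and 11.2 CPM (log2 change 2.23 ± 0.39, adjusted p = 0.000562). Within the NR4A family, Nr4a1 and Nr4a3 thus moved in opposite directions. Fos, Junb, Klf6 and Gadd45b did not pass, though Fos was called without the knock-in 3 h library (adjusted p = 0.00803), and Klf6, a zinc finger factor, stood at 1442 and 1790.0 CPM at 1 h and 1389 and 1858 CPM at 3 h.

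Of the 15 largest falls, by the naming rule, 4 were on the immediate early list (Fosb, Egr2, Nr4a1 and Dusp4). Irs2, the insulin receptor substrate that couples insulin and IL-4 receptors to PI3 kinase, fell most of the 15, from 85.7 and 67.3 CPM to 3.41 and 2.06 CPM (by 4.78 ± 0.38 on the log2 scale, adjusted p = 1.11e-06). Its level before stimulation had been 17.2 and 14.7 CPM. Irf2bp2, a transcriptional corepressor, stood at 77.3 and 109.7 CPM at 1 h and 3.62 and 4.80 CPM at 3 h and fell by 4.47 ± 0.43. Sesn1, a stress-inducible inhibitor of the growth kinase complex mTORC1, stood at 74.7 and 93.7 CPM at 1 h and 8.31 and 5.03 CPM at 3 h and fell by 3.63 ± 0.26. Its level before stimulation had been 112 and 149 CPM. Cdca7, a gene of the cell cycle, fell by 4.29 ± 0.40. Trib1, a pseudokinase adaptor that targets C/EBP alpha for degradation, fell by 4.19 ± 0.51, and Plk3, a polo-like kinase, by 3.63 ± 0.67. Lyl1, a haematopoietic transcription factor, fell by 3.53 ± 0.35 from 20.98 and 28.4 CPM to 3.20 and 0.915 CPM. Utp14b, Zfp395 and Depdc7 fell by 3.61 ± 0.36, 3.60 ± 0.21 and 3.56 ± 0.53. In each of these 10 genes, chosen for large falls, both 3 h values lay below both 1 h values, as in 32.5% of all tested genes. Of them Depdc7 and Cdca7 had 5 and 9 counts over the pair of 3 h libraries, and their errors understate the error of counting.

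The early inflammatory mediators did not move together. Of 15 tested, 5 rose, 3 fell and 7 were not called, with a median of 0.232; with library totals none rose and 4 fell. Tnf was already at 3005 and 1835 CPM at 1 h and stood at 2916 and 2528 CPM at 3 h (log2 change 0.23 ± 0.61, adjusted p = 0.804). Of the neutrophil-attracting chemokines Cxcl1, Cxcl2 and Cxcl3 the first 2 fell. Cxcl2 stood at 1106 and 476 CPM at 1 h and 323 and 53.5 CPM at 3 h (log2 change -2.35 ± 0.65, adjusted p = 0.018). Cxcl1 stood at 313 and 26.6 CPM at 1 h and 125 and 10.1 CPM at 3 h (log2 change -1.32 ± 0.39, adjusted p = 0.022). Cxcl1 values overlapped between the times, since the wild-type value at 3 h lay above the knock-in value at 1 h, and fell within each genotype. The monocyte-attracting Ccl2 stood at 2486 and 2240.5 CPM at 1 h and 3802 and 4566 CPM at 3 h and rose by 0.82 ± 0.18. Ccl7 rose by 0.63 ± 0.20, Ccl4 by 0.77 ± 0.19, Ccl3 by 1.08 ± 0.33 and Ptgs2, the inducible prostaglandin synthase, by 1.13 ± 0.39. Lif, an IL-6 family cytokine, fell by 1.39 ± 0.42. The list's calls depended on single libraries. Without the wild-type 1 h, wild-type 3 h or knock-in 1 h library 2 rose and 1 fell, and without the knock-in 3 h library 3 rose and 2 fell. The calls of Cxcl1, Ccl3 and Ccl7 were lost without each of the 4 libraries in turn. Those of Ptgs2 and Lif were lost without the wild-type 1 h, wild-type 3 h or knock-in 1 h library, and that of Cxcl2 without either knock-in library. Adjusted p in these losses lay between 0.0509 and 0.644. Ptgs2 was also lost without the knock-in TNF 3 h library (0.0653).

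Regulators of mRNA decay, proteins that bind AU-rich or stem-loop elements in cytokine transcripts, gave 2 rises and 1 fall among 9 tested (1 and 5 with library totals). Of all tested genes 19.9% rose and 17.9% fell. Zfp36l1 stood at 157 and 153 CPM at 1 h and 13.6 and 41.4 CPM at 3 h and fell by 2.62 ± 0.49 (adjusted p = 0.00193). Its relative Zfp36 (tristetraprolin) stood at 444 and 453 CPM at 1 h and 504 and 661 CPM at 3 h and was not called. Rc3h1, the gene of Roquin-1, rose from 119.6 and 138 CPM to 229 and 214 CPM (log2 change 0.79 ± 0.12, adjusted p = 0.000147), and Rc3h2 rose by 0.68 ± 0.13.

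Genes of the NF-kB pathway itself rose in 8 of 16 tested and fell in none (6 and 2 with library totals). Nfkb2, the gene of the precursor p100, stood at 129 and 46.9 CPM at 1 h and 590.5 and 229.9 CPM at 3 h and rose by 2.22 ± 0.28 (adjusted p = 9.36e-05). Nfkb1, the gene of the precursor p105, stood at 137 and 116 CPM at 1 h and 679.5 and 329 CPM at 3 h and rose by 1.94 ± 0.23 (adjusted p = 4.92e-05). Rela rose by 0.98 ± 0.14 and Relb, the partner of p100, by 1.08 ± 0.31. The call of Relb was lost without the wild-type 3 h (adjusted p = 0.247) or knock-in 1 h library (0.109). Nfkbia, the inhibitor IkB alpha and an early target, stood at 1677 and 431 CPM at 1 h and 1122 and 524 CPM at 3 h and was not called. Tnfaip3, the gene of the deubiquitinase A20, stood at 1768 and 429.6 CPM at 1 h and 1399 and 1107 CPM at 3 h and was not called either. Tnip3 and Bcl3, 2 further inhibitors or modulators, rose by 1.75 ± 0.53 and 1.67 ± 0.58. Both calls were lost without the wild-type 3 h library (adjusted p = 0.347 and 0.295) or the knock-in 1 h library (0.163 and 0.228), and that of Bcl3 also without the knock-in 3 h (0.065) or knock-in TNF 3 h library (0.0726). The count of rises in the list was 5 without the wild-type 3 h library and 5 without the knock-in 1 h library.

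The interferon and IRF3 target list rose in 8 of 9 tested, with a median of 5.262. The exception was Ifnb1, which stood at 93.1 and 137 CPM at 1 h and 27.9 and 189 CPM at 3 h and was not called (log2 change -0.45 ± 0.41, adjusted p = 0.433). It had been at 0.124 and 0 CPM before stimulation, so it was already high at 1 h. Without the knock-in 3 h library it was called lower (adjusted p = 0.000123). Ifit2, an antiviral RNA-binding protein, stood at 102 and 177 CPM at 1 h and 8454 and 13077 CPM at 3 h and rose by 6.28 ± 0.45 (adjusted p = 1.7e-06). Ifit3, whose promoter is shown above, stood at 8.83 and 23.3 CPM at 1 h and 502 and 1027 CPM at 3 h and rose by 5.58 ± 0.39 (adjusted p = 1.13e-06), 48-fold. Ccl5, a T-cell-attracting chemokine, stood at 43.98 and 10.2 CPM at 1 h and 1254 and 864 CPM at 3 h and rose by 5.49 ± 0.57. Oasl1, a relative of the oligoadenylate synthetases, stood at 14.5 and 56.1 CPM at 1 h and 699 and 2019 CPM at 3 h and rose by 5.31 ± 0.35. Cxcl10 rose by 4.41 ± 0.85 to nearly equal 3 h levels of 8778 and 9004 CPM from unequal 1 h levels of 1023 and 157 CPM.

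All 32 interferon-stimulated genes of the list were higher at 3 h, with a median of 3.697 and a range of 1.29 (Bst2) to 8.67 (Mx1). Mx1, a dynamin-like antiviral GTPase, stood at 1.66 and 3.72 CPM at 1 h and 1022 and 1157 CPM at 3 h, a 408-fold rise (log2 change 8.67 ± 0.47, adjusted p = 1.62e-07). Cmpk2, a mitochondrial nucleotide kinase next to Rsad2 on chromosome 12, stood at 38.8 and 57.7 CPM at 1 h and 7364 and 11752 CPM at 3 h and rose by 7.62 ± 0.31 (adjusted p = 9.62e-09). Usp18, the protease that removes ISG15 and restrains the interferon receptor, rose from 4.42 and 6.46 CPM to 323 and 477 CPM, and Ifi44 from 0.552 and 0.196 CPM to 19.2 and 26.8 CPM. The factors that carry the interferon signal rose as well: Stat2 by 3.81 ± 0.19, Irf9 by 2.01 ± 0.13 and Irf7 by 5.00 ± 0.24. The 1 h and 3 h values overlapped for none of the 32, and over all tested genes 31.3% had both 3 h values above both 1 h values. At 8 h every gene of the list but Ifih1 stood above its 3 h level in both genotypes, and Mx1 stood at 2960.0 and 3968 CPM.

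The interferon-inducible GTPases, guanylate-binding proteins and immunity-related GTPases that attack the vacuoles of intracellular pathogens, rose in all 16 tested, with a median of 5.449 (the same with Tgtp1 at its bound). Iigp1 (Irga6) stood at 0 and 1.56 CPM at 1 h and 203 and 973 CPM at 3 h, the largest named rise of the comparison (684-fold, log2 change 9.42 ± 0.40, adjusted p = 1.14e-08). This rise rests on 8 counts over the pair of 1 h libraries, and the error given understates the error of counting. Gbp4 stood at 0.736 and 0.978 CPM at 1 h and 142 and 228 CPM at 3 h and rose by 7.70 ± 0.40. It had 9 counts over the pair of 1 h libraries, and its error has the same limit. Tgtp2 had 3 counts at 1 h and 529 at 3 h, a ratio of 205 (69.8 to 998). Its near-identical copy Tgtp1 had 0 and 122, at least 47.3-fold higher against a floor of 3 counts over the pair of libraries. Counts of such copies, and of the Gbp, Ifi200 and Serpina3 families, depend on how reads that match several genes were treated. Irgm1, a regulator of the family, rose by 5.25 ± 0.30 from a detectable unstimulated level of 49.2 and 62.2 CPM. The smallest rise in the list was that of Gbp8, 1.35 ± 0.36, a call lost without the wild-type 1 h, knock-in 1 h or knock-in 3 h library (adjusted p 0.0514 to 0.108). DESeq2 did not call Tgtp1 (adjusted p = 0.141).

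The rest of the 15 largest rises were of similar kind. Ifi208 had 1 count at 1 h and 585 at 3 h (ratio 681, interval 122 to 26900), Serpina3f 1 and 407 (474, 84.5 to 18800) and Ccl8 2 and 341 (198, 54.5 to 1640). Ifit1bl1, a gene of the Ifit cluster, stood at 2.94 and 3.13 CPM at 1 h and 289 and 1310.4 CPM at 3 h and rose by 7.83 ± 0.69. Tnfsf10, the gene of the death ligand TRAIL, stood at 0.920 and 0.782 CPM at 1 h and 183 and 170.5 CPM at 3 h and rose by 7.66 ± 0.48 (adjusted p = 3.18e-07), with wild-type and knock-in values close at both times. Ifi206, Serpina3g and AW112010 rose by 7.49 ± 0.45, 7.26 ± 0.52 and 7.02 ± 0.52. Ifi206 and Serpina3g rest on 5 and 4 counts over the pair of 1 h libraries, and their errors understate the error of counting.

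**Figure D2:**
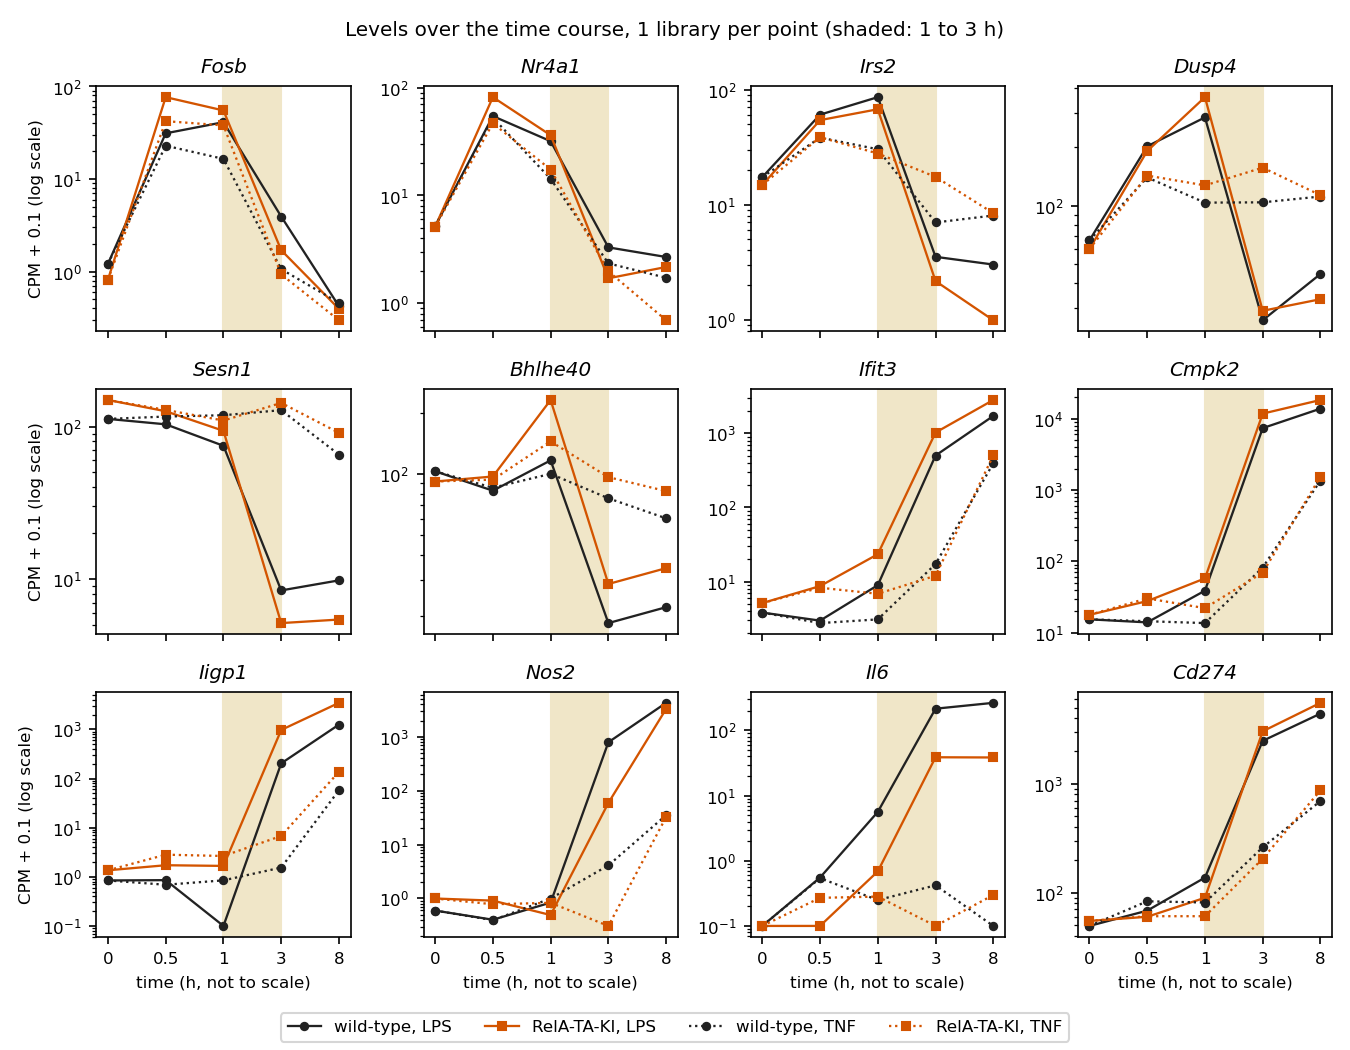
Levels of 12 genes (CPM + 0.1, log axis) in unstimulated cells and at 0.5, 1, 3 and 8 h, with LPS as solid and TNF as dotted lines, wild-type in black circles and RelA-TA-KI in orange squares; each point is 1 library and the 1 to 3 h interval is shaded. Fosb and Nr4a1 dropped in the shaded interval after both stimuli, Irs2, Dusp4, Sesn1 and Bhlhe40 dropped there after LPS with little change or smaller falls after TNF, and Ifit3 to Cd274 rose there after LPS.

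Secondary effectors, inflammatory products that need new synthesis of factors or chromatin remodelling, rose in 18 of 22 tested and fell in none, with a median of 2.727. With library totals 17 rose, and with no genotype term 12. The median lay between 2.47 and 3.386 when 1 of the 4 libraries was left out. Without the wild-type 1 h library the change of Saa3 was 1.89 in place of 4.31. Without the wild-type 3 h library that of Marco was 0.33 in place of 1.67. Nos2, the inducible nitric oxide synthase, stood at 0.736 and 0.391 CPM at 1 h and 793 and 59.3 CPM at 3 h and rose by 9.17 ± 1.29 (adjusted p = 0.000375). The wild-type 3 h level was far above the knock-in 3 h level, and limma-voom did not call the gene (adjusted p = 0.0864). Cxcl9, an interferon-inducible T-cell chemokine, had 3 counts at 1 h and 1429 at 3 h, a ratio of 554 (189 to 2690). Il6 stood at 5.52 and 0.587 CPM at 1 h and 216 and 38.7 CPM at 3 h and rose by 5.41 ± 0.25 (adjusted p = 1.26e-08), 42.6-fold. Il27, a subunit of interleukin 27, stood at 9.02 and 2.54 CPM at 1 h and 379 and 324 CPM at 3 h and rose by 5.90 ± 0.40 (adjusted p = 8.22e-07). Il12b rose by 3.01 ± 0.48 from 61.1 and 0.978 CPM to 502 and 17.2 CPM. The knock-in library at 3 h lay below the wild-type library at 1 h, and the rise was within each genotype. Its call was lost without the wild-type 3 h library (adjusted p = 0.0535). Acod1, the itaconate-producing enzyme, rose by 4.37 ± 0.63 to 4879 and 2761 CPM, and Cd69, an activation receptor, by 6.43 ± 0.86 to 1310.0 and 721 CPM. Il10, Csf3, Arg2 and Serpinb2 were not called, except Serpinb2 without the wild-type 3 h library (adjusted p = 0.0118).

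Among SOCS, JAK, STAT and IRF genes 12 of 19 rose and 1 fell (9 and 4 with library totals). Socs1, the inhibitor of JAK kinases, stood at 2.76 and 5.28 CPM at 1 h and 179 and 291 CPM at 3 h and rose by 5.86 ± 0.34 (adjusted p = 1.15e-07). Cish, another member of its family, rose by 3.22 ± 0.45 to 62.9 and 50.3 CPM and stood at 8.07 and 5.61 CPM at 8 h. Socs3, which restrains IL-6 signalling, was already at 518 and 78.6 CPM at 1 h and was not called. Jak2 rose from 84.5 and 47.9 CPM to 635 and 462 CPM (log2 change 3.06 ± 0.19). Irf8, a factor of the macrophage lineage, rose from 63.5 and 89.98 CPM to 382 and 694 CPM (2.78 ± 0.32). Irf1 stood at 536 and 36.6 CPM at 1 h and 1763 and 1844 CPM at 3 h, with unequal 1 h levels, and just missed the test (adjusted p = 0.0525, and 0.0429 without the wild-type 1 h library). Irf4 fell by 1.47 ± 0.44, a call lost without the wild-type 3 h library (adjusted p = 0.195) or the knock-in 1 h library (0.134). Irf3 and Stat6 were not called.

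Genes of cell death and survival rose in 19 of 26 tested and fell in 2 (18 and 4 with library totals, 17 and 1 with no genotype term). The list's median of 1.411 was 1.139 without the wild-type 3 h library and 1.243 without the knock-in 1 h library. It was 1.67 without the wild-type 1 h library and 1.503 without the knock-in 3 h library. Both survival genes and executioners rose. Traf1, a TNF receptor adaptor, rose by 2.80 ± 0.64 and Ripk2, the NOD receptor kinase, by 2.35 ± 0.42. Casp4 (caspase-11), which senses LPS in the cytosol, rose by 2.23 ± 0.31 from 45.6 and 19.6 CPM to 181 and 121 CPM. Mlkl, the effector of necroptosis, rose by 1.74 ± 0.12 and Cflar, the inhibitor of caspase-8, by 1.57 ± 0.18 to 1797 and 1619.5 CPM. Fas, a death receptor, rose by 2.36 ± 0.52 and Bcl2a1a, 1 of several near-identical survival genes, by 2.37 ± 0.72. Nlrp3, the inflammasome sensor, stood at 679.7 and 325 CPM at 1 h and 426 and 156 CPM at 3 h and fell by 0.85 ± 0.30 (adjusted p = 0.0474), and Mcl1, a survival gene, fell by 0.40 ± 0.12. Nlrp3 values overlapped between the times. The calls of Nlrp3 and Mcl1 were lost without each of the 4 libraries in turn (adjusted p 0.0523 to 0.261). Those of Traf1 and Bcl2a1a were lost without the wild-type 3 h or the knock-in 1 h library (adjusted p 0.0528 to 0.135), and that of Fas without the wild-type 3 h library (0.108).

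Antigen presentation and costimulation rose in 17 of 21 tested and fell in none, with a median of 1.788. Cd274, the gene of the inhibitory ligand PD-L1, stood at 137 and 89.6 CPM at 1 h and 2473 and 3026 CPM at 3 h and rose by 4.61 ± 0.26 (adjusted p = 1.04e-07). Cd40, a costimulatory receptor, stood at 30.7 and 0.587 CPM at 1 h and 523 and 217 CPM at 3 h and rose by 4.64 ± 0.95. Tap1, a subunit of the peptide transporter, rose from 31.6 and 39.3 CPM to 432 and 443 CPM (3.63 ± 0.24). Nlrc5, the transactivator of MHC class I genes, rose from 16.01 and 28.4 CPM to 248 and 284 CPM (3.61 ± 0.22). B2m rose by 1.20 ± 0.08 and the immunoproteasome subunits Psmb8, Psmb9 and Psmb10 by 1.79 ± 0.15, 2.26 ± 0.19 and 2.03 ± 0.24. Of the MHC class II side, H2-Ab1 rose by 0.62 ± 0.16, a call lost without the wild-type 1 h (adjusted p = 0.0577) or 3 h library (0.19), while Cd74, H2-Aa, H2-Eb1 and Ciita were not called.

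Genes of TLR4 signalling were mixed: 8 of 22 rose and 1 fell, 7 and 6 with library totals, with a median of 0.218. Map3k8 (TPL2), the kinase upstream of ERK, rose by 2.29 ± 0.28 from 31.1 and 16.8 CPM to 114 and 119.7 CPM. Myd88 rose by 2.10 ± 0.16, Ikbke by 1.85 ± 0.18 and Irak2 by 1.78 ± 0.23. The gene of the other adaptor, Ticam1 (TRIF), fell by 1.29 ± 0.18 from 76.2 and 138 CPM to 40.7 and 44.2 CPM (adjusted p = 9.98e-05). Myd88 and Ticam1 thus moved in opposite directions. Tlr4 and Cd14 were not called. Of 16 other pattern recognition receptors 9 rose and 2 fell (5 and 3 with library totals). Tlr3, the receptor for double-stranded RNA, rose from 12.3 and 10.95 CPM to 132 and 152 CPM (3.61 ± 0.27). Nod1 rose by 3.44 ± 0.19, Nod2 by 2.65 ± 0.59 and Cgas, the DNA sensor, by 1.95 ± 0.18. Tlr13, a receptor for bacterial ribosomal RNA, fell by 1.22 ± 0.12 from 411 and 475 CPM to 169.8 and 212 CPM. Tlr5, the flagellin receptor, fell by 1.53 ± 0.56, a call lost without the wild-type 1 h, wild-type 3 h or knock-in 1 h library (adjusted p 0.0755 to 0.335) or the knock-in TNF 3 h library (0.0526).

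Chemokine receptors and adhesion molecules rose in 7 of 18 tested and fell in none (5 and 2 with library totals, and 4 rises without either wild-type library). Fpr2, a formyl peptide receptor, stood at 1.66 and 0.391 CPM at 1 h and 15.6 and 2.29 CPM at 3 h and rose by 3.07 ± 0.48. Cd44, the hyaluronan receptor, stood at 1112 and 1082 CPM at 1 h and 2323 and 2218 CPM at 3 h and rose by 1.05 ± 0.09 (adjusted p = 5.49e-07), and Itga4, an integrin chain, rose by 1.84 ± 0.17. Icam1 stood at 599 and 26.8 CPM at 1 h and 2262 and 377 CPM at 3 h and rose by 2.42 ± 0.75, although the knock-in library at 3 h lay below the wild-type library at 1 h. That call was lost without the wild-type 3 h, knock-in 1 h or knock-in 3 h library (adjusted p 0.0718 to 0.155). Ccr7, which guides cells to lymph nodes, rose by 2.36 ± 0.67, a call lost without the wild-type 1 h (0.171) or 3 h library (0.0872).

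Of 15 macrophage identity genes tested, 3 rose and 4 fell (3 and 11 with library totals), near the 19.9% and 17.9% of all tested genes. The 4 that fell were all transcription factors, though Spi1, another factor of the list, rose. Cebpa, a factor of the myeloid lineage, stood at 57.04 and 55.4 CPM at 1 h and 7.46 and 9.61 CPM at 3 h and fell by 2.72 ± 0.18 (adjusted p = 9.37e-08), and Maf fell by 1.06 ± 0.17. Cebpb fell by 1.05 ± 0.34, a call lost without the wild-type 1 h, knock-in 1 h or knock-in 3 h library (adjusted p 0.0908 to 0.116). Fcgr1, the high-affinity IgG receptor, rose from 40.8 and 81.96 CPM to 189 and 496 CPM (2.42 ± 0.19). Mertk, a receptor for dying cells, rose by 1.16 ± 0.18, and Spi1, the gene of PU.1, by 0.77 ± 0.15. Surface and lysosomal markers such as Lyz2, Cd68, Itgam and Csf1r were not called.

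Cell cycle and DNA replication genes were lower in 16 of 26 tested and higher in 1, with a median of -0.507. Cdc6, which loads the MCM helicase, stood at 19.1 and 16.4 CPM at 1 h and 1.70 and 4.35 CPM at 3 h and fell by 2.56 ± 0.28 (adjusted p = 9.18e-06). The helicase genes Mcm2, Mcm3, Mcm4, Mcm5 and Mcm7 fell by 0.42 (Mcm5) to 0.98 (Mcm7) on the log2 scale and Mcm6 was not called. Ccne2 fell by 1.38 ± 0.29, E2f1 by 1.05 ± 0.12 and Cdc45 by 1.02 ± 0.18. Ccne1, the other cyclin E gene, rose from 20.2 and 18.4 CPM to 62.01 and 40.5 CPM (1.40 ± 0.21, adjusted p = 0.000155), opposite to Ccne2. Mki67 and Pcna were not called. At 8 h Cdc6 stood at 1.61 and 1.77 CPM, and Ccna2, the gene of cyclin A, at 12.6 and 10.3 CPM, against 126 and 113 CPM at 3 h.

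Of Myc and 15 genes of ribosome biogenesis, 7 fell and 1 rose (13 and 1 with library totals). Myc stood at 67.2 and 76.7 CPM at 1 h and 7.88 and 7.09 CPM at 3 h and fell by 3.25 ± 0.29 (adjusted p = 3.5e-06), below its unstimulated 45.8 and 48.2 CPM. Gnl3 (nucleostemin) fell by 1.73 ± 0.20, Polr1b, a subunit of RNA polymerase I, by 1.30 ± 0.22 and Nop56, a small nucleolar RNP protein, by 1.04 ± 0.17. Wdr43, a nucleolar protein, rose by 0.93 ± 0.12 from 64.2 and 62.2 CPM to 129 and 113 CPM. Ncl, the gene of nucleolin, was not called.

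Cholesterol synthesis and uptake genes fell in 6 of 17 and rose in 1 (15 and 0 with library totals, and 3 falls without the knock-in 1 h library). Stard4, a sterol carrier, stood at 203 and 233 CPM at 1 h and 99.9 and 92.7 CPM at 3 h and fell by 1.17 ± 0.09 (adjusted p = 4.19e-07). Insig1, the sterol sensor, fell by 1.27 ± 0.25 and Lss by 0.56 ± 0.20. The call of Lss was lost without the knock-in 1 h (adjusted p = 0.375) or 3 h library (0.274). Of 13 LXR and lipid synthesis genes 5 fell and 2 rose (9 and 2 with library totals, and 3 falls without the wild-type 3 h, knock-in 1 h or knock-in 3 h library). Among all tested genes 17.9% fell and 19.9% rose. Mylip, a ubiquitin ligase gene, fell by 1.58 ± 0.30, and Scd2, a desaturase, by 0.72 ± 0.10 from 1341 and 3393 CPM to 857 and 1958 CPM. Of further synthesis genes Fasn fell by 0.87 ± 0.28 and Acaca by 0.50 ± 0.16, while Acly (1.01-fold) and Scd1 (1.03-fold) were not called. Abcg1, a cholesterol exporter, rose by 1.11 ± 0.12 and Nr1h3, the gene of LXR alpha, by 1.04 ± 0.18. The calls of Fasn and Acaca were lost without the wild-type 3 h, knock-in 1 h or knock-in 3 h library, and that of Acaca also without the wild-type 1 h library (adjusted p 0.0589 to 0.166).

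Genes of glycolysis and hypoxia had a median of 0.026 over 19 tested, with 3 rises and 2 falls (3 and 12 with library totals). The rises were those of the hexokinases Hk2 (1.60 ± 0.22, from 107 and 71.8 CPM to 232 and 298 CPM) and Hk1 (1.04 ± 0.15) and the phosphofructokinase Pfkp (1.13 ± 0.08). Of hypoxia-linked genes Vegfa stood at 9.57 and 50.3 CPM at 1 h and 2.98 and 5.03 CPM at 3 h and fell by 2.75 ± 0.49 (adjusted p = 0.000932). Egln3, a prolyl hydroxylase, fell by 1.18 ± 0.32, a call lost without the knock-in 1 h (adjusted p = 0.0746) or 3 h library (0.146). Oxidative stress and metal response genes gave 2 rises (Prdx1 0.74 ± 0.12, Sqstm1 0.73 ± 0.24) and 1 fall (Gclc -1.05 ± 0.24) of 12 tested, 1 and 3 with library totals. Beside both lists of this paragraph stand 19.9% higher and 17.9% lower over all tested genes. Sqstm1 was not called without the wild-type 1 h, wild-type 3 h or knock-in 1 h library (adjusted p 0.0779 to 0.334), nor Gclc without the wild-type 3 h library (0.0613).

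ER stress genes were lower in 6 of 10 tested and higher in 1 (9 and 0 with library totals). Chac1, a glutathione-degrading enzyme induced by ATF4, stood at 8.28 and 14.1 CPM at 1 h and 0.426 and 0.458 CPM at 3 h, against 4.21 and 3.59 CPM before stimulation, and fell by 4.57 ± 0.61 (adjusted p = 4.93e-05). This fall rests on 4 counts over the pair of 3 h libraries, and the error given understates the error of counting. Herpud1, a factor of ER-associated degradation, stood at 82.6 and 67.7 CPM at 1 h and 25.4 and 13.04 CPM at 3 h and fell by 1.99 ± 0.20 (adjusted p = 3.53e-06). Atf4, the factor of the amino acid and ER stress response, fell from 369 and 513 CPM to 208 and 195 CPM, Trib3 by 1.55 ± 0.35 and Ddit3 (CHOP) by 1.14 ± 0.26. The calls of Trib3 and Ddit3 were lost without the knock-in 1 h library (adjusted p = 0.0765 and 0.0834). The chaperone Hspa5 (BiP) rose by 0.29 ± 0.08, which turned to -0.11 with library totals. Its call was lost without the wild-type 1 h (0.0993) or knock-in 3 h library (0.0532).

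Circadian clock genes were lower in 9 of 13 tested and higher in 1, with a median of -1.645 (the same with Nr1d1 and Per2 at their bounds). Bhlhe40 (DEC1), a repressor of clock and immune genes, stood at 116 and 231 CPM at 1 h and 18.3 and 28.6 CPM at 3 h and fell by 2.86 ± 0.23 (adjusted p = 1.12e-06). Nr1d1 (REV-ERB alpha), a repressor of Arntl, had 37 counts at 1 h and 0 at 3 h, at least 10.6-fold lower. Per2 had 12 and 0, at least 3.44-fold lower. Both bounds are against a floor of 3 counts over the pair of libraries. Per1 stood at 16.01 and 44.99 CPM at 1 h and 4.47 and 5.03 CPM at 3 h and fell by 2.62 ± 0.51. Nr1d2 (REV-ERB beta) rose by 0.75 ± 0.17 from 35.3 and 46.8 CPM to 50.9 and 89.5 CPM. Clock, Cry1 and Cry2 were not called. The count of falls was 5 without the knock-in 1 h and 4 without the knock-in 3 h library. Per2 was not called without the wild-type 3 h, knock-in 1 h or knock-in 3 h library (adjusted p 0.0589 to 0.0799), nor Nr1d2 without the knock-in 3 h library (0.0707).

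The change was then compared between genotypes, with the spread taken from the other 7 genotype pairs. No gene differed at an adjusted p under 0.05 by edgeR (0%), 575 of 11308 had an unadjusted p under 0.05, and the smallest adjusted p was 0.130. DESeq2 called 2 genes, limma-voom none, and edgeR 7 with no filter on low counts. The genes of those calls were chosen after their values were seen. DESeq2 called Stard7, a lipid carrier, at 88.3 and 69.4 CPM at 1 h and 155 and 44.8 CPM at 3 h, and Fos, at 41.6 and 50.3 CPM at 1 h and 8.10 and 62.2 CPM at 3 h. Without the filter edgeR called Stard7, Ifnb1, Ankrd44, Slamf1, Rnf24, Flrt2 and Rin3. The 3 h level of Ifnb1 was 27.9 CPM without and 189 CPM with the knock-in, and its change was more positive in the knock-in by 2.21 ± 0.31 (adjusted p = 0.130 with the filter). Among named genes whose difference was not called, Nos2 changed by 9.91 in wild-type and 6.94 in knock-in cells, and Cd40 by 4.09 and 8.32. Saa3, an acute-phase protein gene, changed by 4.43 and 1.36, and Egr2 by -4.88 and -2.76. A missed threshold with 1 library per genotype and time does not show that the genotypes acted alike.

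**Figure D3:**
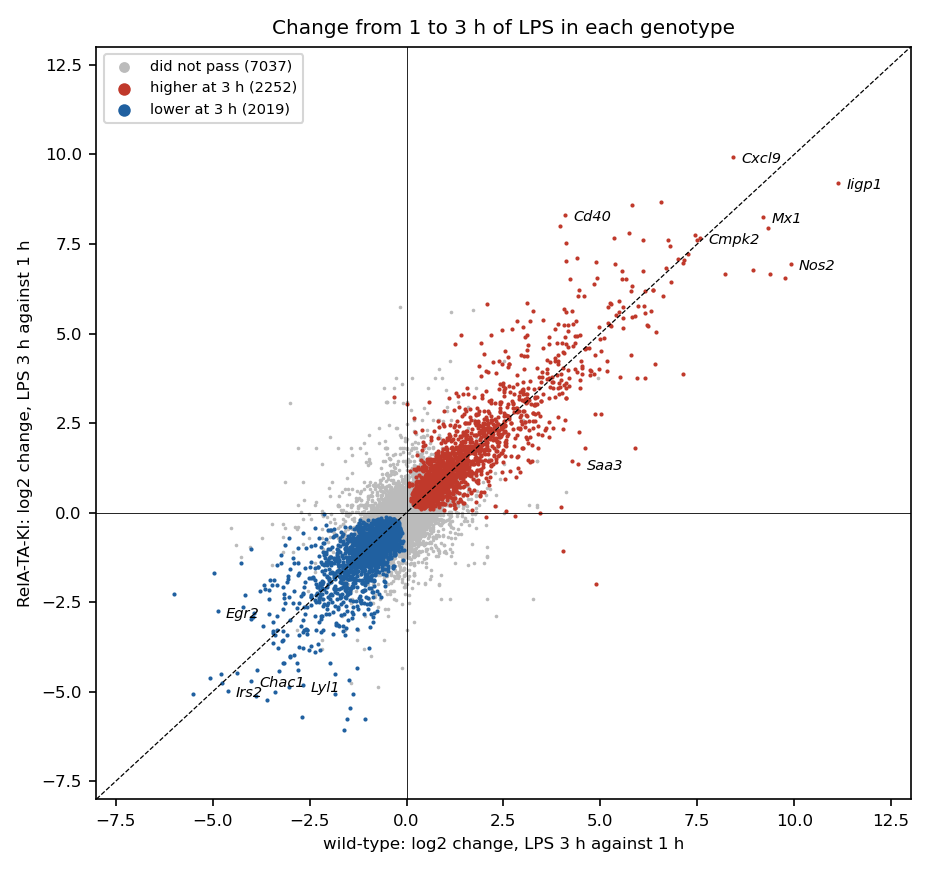
Each point is 1 of the 11308 tested genes, with the log2 change from 1 to 3 h of LPS in wild-type cells on the horizontal and in RelA-TA-KI cells on the vertical axis; colours mark the 2252 higher and 2019 lower genes and the dashed line marks equal change. The called genes lie along the line in both directions, with Nos2 and Saa3 below it and Cd40 above it.

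The same interval after TNF, which shares no library with the LPS comparison, changed fewer genes: 364 were higher (3.22%) and 332 lower (2.94%). When the RelA-TA-KI library at 3 h of TNF was left out, 195 were higher and 150 lower. With library totals the TNF counts were 256 and 451. The 2 changes differed by a direct test in 1688 genes, with the change after LPS the more positive in 986 (8.72%) and the more negative in 702 (6.21%). With library totals these were 668 and 2219. Of the 2252 genes that rose after LPS, 960 had a difference above 0, 3 below it (Plxna2, Zmiz2 and Ccdc88a, named after their values were seen) and 1289 had none that passed. Of the 2019 that fell, 658 had a difference below 0 and 1361 none that passed.

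By list, the difference was called above 0 in 30 of 32 interferon-stimulated genes, 13 of 21 antigen presentation genes, 11 of 16 GTPases and 6 of 22 secondary effectors. Iigp1 changed by 9.42 ± 0.40 after LPS and 1.25 ± 0.52 after TNF (difference 8.17 ± 0.87, adjusted p = 6.42e-05). Mx1 changed by 8.67 ± 0.47 and 2.12 ± 0.52 (6.55 ± 0.83, 0.000367) and Adamts4, an aggrecan-cleaving protease, by 5.47 ± 0.49 and -1.08 ± 1.22 (6.55 ± 1.41, 0.00821). Among immediate early genes the difference was below 0 in 10 of 29 and above 0 in 1. Dusp4 changed by -3.55 ± 0.20 and 0.17 ± 0.17 (difference -3.72 ± 0.26, adjusted p = 1.56e-06). Fosb changed by -4.11 ± 0.41 and -4.78 ± 0.50, with no difference called. Gdf15, a stress cytokine of the TGF beta family, stood at 347 and 575 CPM at 1 h and 46.7 and 36.2 CPM at 3 h after LPS and changed by -3.42 ± 0.75, against 1.31 ± 0.69 after TNF (difference -4.73 ± 1.01, adjusted p = 0.012). Without the knock-in LPS 3 h library its fall after LPS was not called (adjusted p = 0.0683). Cxcl2 changed by -2.35 ± 0.65 after LPS and 1.71 ± 0.80 after TNF (difference -4.05 ± 1.02, adjusted p = 0.0257). Sesn1 changed by -3.63 ± 0.26 and 0.24 ± 0.18 (-3.87 ± 0.32, 6.51e-06). Without the knock-in TNF 3 h library the differences of Cxcl2, Egr2 and Serpina3g were not called (adjusted p = 0.0838, 0.249 and 0.0522).

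**Figure D4:**
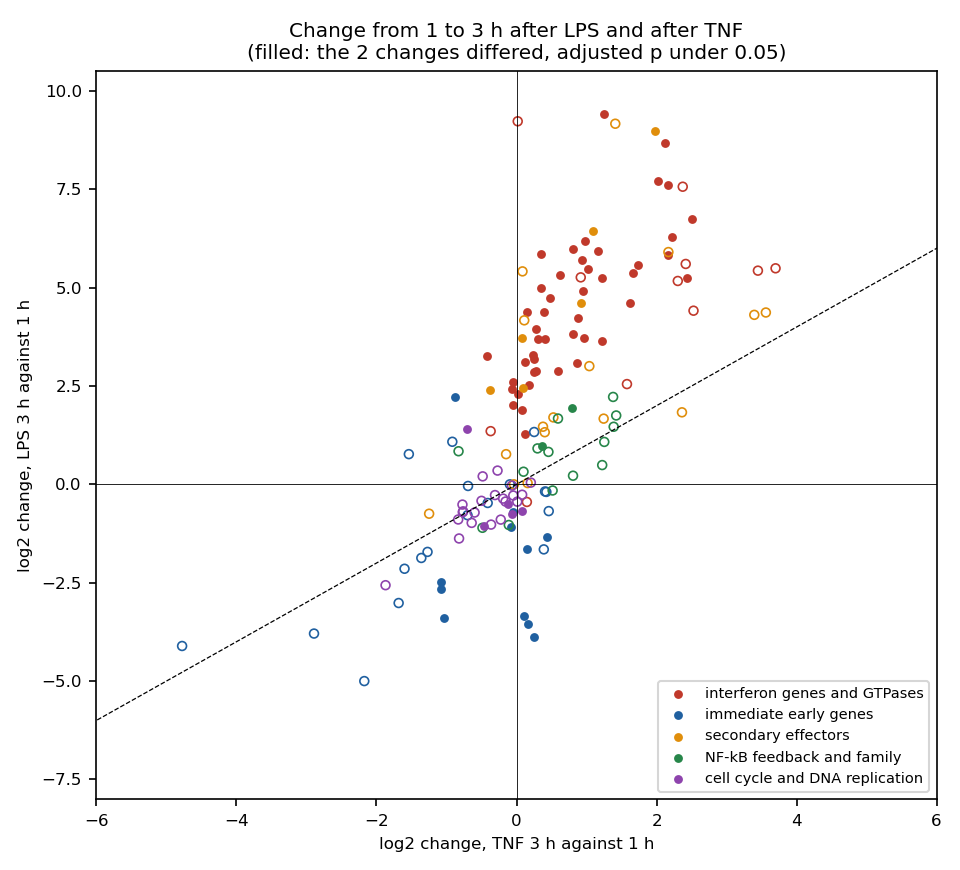
Genes of 7 lists by their log2 change from 1 to 3 h after TNF (horizontal) and after LPS (vertical); filled points differed between the stimuli at an adjusted p under 0.05 and the dashed line marks equal change. All interferon genes and GTPases (red) but Ifnb1 lie above the line and above 0 after LPS, while several immediate early genes (blue), such as Dusp4, lie near 0 after TNF and below -3 after LPS.

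Promoter letters were then counted over the 7071 tested genes with 1 entry in the RefSeq table. The ISRE core was present in 12.3% of 660 promoters of genes at least 2-fold higher and in 2.61% of 498 of genes at least 2-fold lower, against 3.46% of all tested and 3.58% of all 22862 single-entry promoters of the table. By list it was present in 8 of 9 GTPase promoters, 11 of 20 of interferon-stimulated genes and 4 of 6 of interferon and IRF3 targets. The kappaB motif was present in 7.58% of the promoters of higher and 4.42% of lower genes, against 5.09% of all tested, and in 7 of 10 of the NF-kB feedback list. It was also in 5 of 21 immediate early, 3 of 10 early mediator and 3 of 6 interferon and IRF3 target promoters. Among secondary effectors it was in 2 of 12, among GTPases in 1 of 9 and among interferon-stimulated genes in 1 of 20. The CArG box, the site of serum response factor, was present in 1.21% and 2.01%, against 1.27%, and in 2 of 21 immediate early promoters. Of the other promoters selected with those shown, Nr4a1 held 1 kappaB match and Cmpk2, Ifi44 and Cxcl9 held none of the 3 motifs in this window. A match describes letters and does not show binding, and no match says only that the letters are not in these 300 bases.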

How the data were processed

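The members, gene lists and tests were chosen with earlier results of these data known. Poly(A) RNA was sequenced from 18 libraries, 1 per genotype and condition (9 conditions), with a stranded kit and single-end reads, per the labels' protocols. The authors deposited unnormalised counts per gene for 45706 gene IDs. The submitters' processing notes name cutadapt 1.12, STAR, featureCounts 1.5.0, DESeq2 and build mm10, with no roles. Neither the strand setting nor the annotation release is named in them. Symbols and coordinates came from a GRCm38 gene table (563 IDs had none), and 24529 IDs had no count in any library.

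From these counts, 11308 genes were kept (edgeR filterByExpr on the design of 9 conditions and genotype, minimum count 10, minimum total 15). They were fitted with edgeR 4.0.16 (R 4.3.3) by TMM scaling and quasi-likelihood over all 18 libraries, with terms for 9 conditions and genotype (8 residual degrees of freedom, common coefficient of variation 0.111). The genotype term pairs the libraries. Contrasts were LPS 3 h against 1 h, the same for TNF, their difference and, with 2 more terms (6 degrees of freedom), the genotype difference. P-values were adjusted by Benjamini-Hochberg over all genes tested, and errors are standard errors from the F statistic. CPM use TMM-scaled totals. Log2 changes given for 1 genotype use a prior count of 0.5, and those with errors are fitted values at edgeR's default prior count. At these library totals, genes with few counts are imprecise, so those with up to 3 counts at one time are given as count ratios with exact 95% intervals for counting error, or as bounds against 3 counts. The procedure was tested on simulated data.

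Named genes were the 15 largest changes per direction and the 8 largest LPS and TNF differences per direction (mean log2 CPM of at least 1), and up to 4 largest called and 2 opposite ones in each of 23 lists (411 genes tested). Further genes of a list are named to describe it. Of 7 marker lists each result is given. Promoters came from a RefSeq table (250 bases before to 50 after the start), where 7071 tested genes had 1 entry. Alternatives were DESeq2 1.42.0, limma-voom (limma 3.58.1), other scalings, filters and sets of libraries, and leaving out libraries. Leaving out the knock-in TNF 3 h library was chosen after seeing the data. No sample column was left unused. Most genes of the lists enter only the counts, and some are not reported here.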

Additional observations from a re-analysis of the deposited data

Results flagged for a closer look

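The change from 1 to 3 h differed between LPS and TNF in 1688 genes by the test of the difference itself (edgeR, adjusted p under 0.05), which brought these results here. Among the largest differences above 0 on the log2 scale were Iigp1 at 8.17, Cxcl9 at 7.02, Adamts4 at 6.55, Mx1 at 6.55, Olfr56 at 6.54, Serpina3g at 6.49, Ifit1bl1 at 6.396 and AA467197 at 6.11. Cxcl9 had 3 counts at 1 h of LPS, so its value depends on the prior count, and Olfr56 lies inside the Irgm1 to Ifi47 cluster of interferon-inducible GTPase genes, where reads of overlapping genes may be mixed. Among the largest below 0 were Gdf15 at -4.73, Chac1 at -4.26, Cdca7 at -4.20, Egr2 at -4.14, Irf2bp2 at -4.05, Cxcl2 at -4.05, Sesn1 at -3.87 and Fam43a at -3.80. Of these 16 genes, Serpina3g, Egr2 and Cxcl2 lost the call without the knock-in TNF 3 h library (adjusted p = 0.0522, 0.249 and 0.0838). No cause of these differences was tested.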

How the results depend on the processing

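The count of 4271 genes changed between 1 and 3 h of LPS lay between 2563 and 3348 when single libraries or both libraries of a genotype were left out (2736 without both wild-type libraries), and 3455 without the genotype term that serves as the replicate block. It was 6559 with library totals, 3834 with DESeq2 and 4243 with limma-voom. The TNF count was 345 without the knock-in TNF 3 h library. The LPS minus TNF count was 2887 with library totals. The genotype difference gave 7 genes with no filter on low counts and 2 with DESeq2, against 0. Hspa5 turned to -0.11 with library totals, the reversal among the named genes' LPS and difference calls in all settings run. The cause of the other shifts was not tested. Fewer libraries also leave fewer residual degrees of freedom. Of 133 named genes, 29 lost the LPS call without at least 1 of the 4 libraries. The 133 are the genes picked by the naming rule. Others named to describe a list, such as Cxcl1, Relb, Il12b and Gbp8, also lost the call and are not counted there. Genes with up to 3 counts at one time are limited by depth and were given as ratios or bounds.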

Other observations

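Some of the genes that were at least 2-fold higher at 3 h of LPS were chromosomal neighbours. Of the 1074 genes, 190 stood in 47 runs of 3 or more neighbouring tested genes that were all at least 2-fold higher, and the other genes did not. Of the 832 lower genes, 32 stood in 10 runs. The higher genes made up 9.5% of those tested and the lower 7.36%, and the number of runs to be expected from these shares was not computed. The longest run held 10 genes from Irgm1 to Ifi47 on chromosome 11 (chr11:48861968-49135387, GRCm38), and includes the copies Tgtp1 and Tgtp2, which had 0 and 3 counts at 1 h. The log2 changes of the other 8 were 2.76 to 6.92. A run of 6 on chromosome 19 was the Ifit family, genes of RNA-binding antiviral proteins, from Ifit2 to Ifit1 (chr19:34550694-34650009), with changes of 3.32 to 7.83. On chromosome 17, Psmb9, Tap1, Psmb8 and Tap2, the immunoproteasome and peptide transporter genes of the MHC, made a run of 4 in 34.3 kb (chr17:34181988-34216321), with changes of 1.79 to 3.63. On chromosome 1 a run of 6 from Aim2, a cytosolic DNA sensor gene, to Ifi208 held members of the Ifi200 family. These are counts with no test, and near-identical copies can share reads.

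The 5 lists compared by gene span were all shorter than the tested genes as a whole. The median span was 23.2 kb over all 11308 tested genes, 5.16 kb over the 29 immediate early genes and 2.63 kb over the 15 early inflammatory mediators. It was 10.2 kb over the 22 secondary effectors, 15.6 kb over the 32 interferon-stimulated genes and 20.1 kb over the 16 GTPases. Over all genes at least 2-fold lower the median span was 24.9 kb, and over those at least 2-fold higher 26.5 kb.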
